A study of Homo sapiens with 6 samples.

Results

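The genes of glycolysis and of the response to low oxygen were examined in LNCaP cells with and without PACT, the double-stranded RNA binding protein encoded by *PRKRA*. The 37 genes were chosen by name: the enzymes that take glucose to lactate, their transporters and regulators, and the genes controlled by hypoxia-inducible factor (HIF), out of 29806 genes in the deposited counts. LNCaP is an androgen-responsive cell line from a human prostate cancer metastasis. The groups were 3 dishes of LNCaP parental cells, of wild type genotype, and 3 dishes of LNCaP cells in which PACT had been knocked out with CRISPR-Cas9 (PACT KO). Both groups grew in RPMI-1640 with 10% fetal bovine serum, 1000000 cells were plated per 10 cm dish, and RNA was taken after 48 h at about 80% confluency. By a supplementary figure legend of the study, a single knockout clone served in the experiments. The spread among the PACT KO dishes is therefore a spread between dishes and not between clones. The labels name no low oxygen and no drug in either group.

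Glycolysis splits glucose into pyruvate, and lactate dehydrogenase then turns pyruvate into lactate. When oxygen is low, the HIF alpha subunits HIF1A and EPAS1 escape degradation, pair with ARNT and switch on many genes of this pathway through a short DNA motif, the hypoxia response element. When oxygen is present, prolyl hydroxylases of the EGLN family mark the alpha subunits for destruction, which means that HIF activity is set mostly at the protein level and is not read from HIF1A mRNA. Cancer cells often run glycolysis at a high rate with oxygen present, and prostate cells are known for an unusual use of citrate and zinc.

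The core of the hypoxia response element was sought as the letters ACGTG or GCGTG on both strands in the RefSeq promoter table (GRCh38.p14), in the 250 bases before each listed start site. For each member that fell or rose, the stretch outside exons with the most cores was kept. Among those that fell, none long enough with a core was found for *EGLN1*, *ENO1*, *GPI*, *LDHB*, *P4HA1*, *PDK1*, *PGAM1* and *PKM*. The stretches that follow belong to members at different steps of the pathway, 5 that fell in PACT KO cells (*ALDOA*, *PGK1*, *LDHA*, *PFKFB3* and *BNIP3*) and 1 that rose (*HIF1A*). Each is given 5′ to 3′ on the strand of its gene, lies before the start site and outside every GENCODE 29 exon, and has the core in capitals, so that CACGT or CACGC marks a core on the opposite strand. The *ALDOA* stretch is chr16:30065510-30065672 (plus strand), that of *PGK1* is chrX:78103998-78104173 (plus), and that of *LDHA* is chr11:18394313-18394387 (plus). The *PFKFB3* stretch is chr10:6202694-6202865 (plus), that of *BNIP3* is chr10:131982014-131982173 (minus), and that of *HIF1A* is chr14:61695263-61695512 (plus).
ALDOA: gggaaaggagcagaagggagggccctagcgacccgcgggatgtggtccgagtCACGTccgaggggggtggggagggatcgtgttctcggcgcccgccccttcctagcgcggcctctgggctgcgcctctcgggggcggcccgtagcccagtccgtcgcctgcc
PGK1: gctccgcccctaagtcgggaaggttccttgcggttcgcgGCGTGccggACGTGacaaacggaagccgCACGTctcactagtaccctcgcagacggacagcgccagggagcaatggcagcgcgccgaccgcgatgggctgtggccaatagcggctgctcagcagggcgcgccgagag
LDHA: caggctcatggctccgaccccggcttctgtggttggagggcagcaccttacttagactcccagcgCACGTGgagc
PFKFB3: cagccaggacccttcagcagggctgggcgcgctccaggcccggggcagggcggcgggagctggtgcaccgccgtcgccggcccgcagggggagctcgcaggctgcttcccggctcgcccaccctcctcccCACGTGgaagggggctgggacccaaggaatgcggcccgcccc
BNIP3: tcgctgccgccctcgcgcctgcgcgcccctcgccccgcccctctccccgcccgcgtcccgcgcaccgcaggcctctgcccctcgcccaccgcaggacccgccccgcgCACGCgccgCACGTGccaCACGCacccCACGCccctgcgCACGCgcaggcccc
HIF1A: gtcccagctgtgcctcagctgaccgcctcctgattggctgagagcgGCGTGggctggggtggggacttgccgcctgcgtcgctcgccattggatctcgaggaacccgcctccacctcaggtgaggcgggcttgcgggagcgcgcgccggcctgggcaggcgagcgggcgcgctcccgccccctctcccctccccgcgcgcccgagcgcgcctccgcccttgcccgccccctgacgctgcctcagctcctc

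The *PGK1* stretch holds 3 cores and the *BNIP3* stretch 6. The *LDHA*, *PFKFB3* and *BNIP3* stretches hold CACGTG, the E-box that MYC and other factors also bind, which counts as a core on each strand. Of the 57 windows listed for 33 members, 34 (59.6%) hold a core, against 43.2% of the 35116 windows of all genes. The core was in 20 of 27 windows (74.1%) of the members that fell and in 14 of 30 windows (46.7%) of the others. These others include the members that rose, with the core in 2 of 3 windows (66.7%). A gene can have several windows, and counted by gene the groups were alike. A core was in any window of 15 of 18 members that fell and of 12 of 15 other members. Over all genes listed it was in 12945 of 27305. The E-box was in 14.0% of the members' windows and in 6.34% of all windows. These are counts of letters in a short window and were not tested; *SLC16A1*, *PFKFB2*, *VEGFA* and *BNIP3L* were not in the table.

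The libraries held 19930060 to 24940838 counts on genes, at which 3 counts correspond to 0.121 to 0.148 CPM (counts scaled to a common library total of 1000000). *PRKRA* itself, the targeted gene, fell from 37.1 ± 1.96 CPM (SD, n = 3) to 12.5 ± 0.995 CPM, a log2 fold change of -1.57. All 8 markers of LNCaP luminal cells were present, with a summed level of 2837 to 2861 CPM in LNCaP parental and 3049 to 3068 CPM in PACT KO cells. Basal epithelial markers summed to at most 0.183 CPM. Many markers of other cells were at or under 3 counts in every library, namely *KRT5*, *TP63*, *COL1A2*, *PECAM1*, *CDH5*, *PTPRC*, *CD3E*, *LYZ*, *CAV1*, *CD44* and *AXL*. The summed levels of some lists still moved between the groups, from 30.4 to 34.4 CPM up to 43.8 to 50.4 CPM for 4 stromal markers, and from 5.90 to 6.69 CPM up to 23.9 to 26.7 CPM for 4 markers of androgen receptor-negative lines, 3 of which were at or under 3 counts. In the other direction, 3 endothelial markers summed to 24.1 to 26.6 CPM in LNCaP parental and 15.7 to 17.9 CPM in PACT KO cells, and 4 leukocyte markers to 2.15 to 2.33 CPM and 1.51 to 1.81 CPM. The part of these shifts in the results that follow was not tested. In such bulk RNA, fewer cells of a kind and less RNA per cell cannot be told apart, and CPM are relative to the RNA sequenced.

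PACT KO cells had less mRNA of most glycolytic enzymes and more of both HIF alpha subunits. Of the 37 genes, 35 were abundant enough to be tested, and 18 of them fell and 3 rose in PACT KO cells, taking as threshold a false discovery rate (FDR) of 0.01 over the 14462 genes tested with edgeR. The genes that fell made up 51.4% of those tested, against 18.8% of all genes, and the genes that rose made up 8.57%, against 15.3% of all genes. The changes were small: with a change of at least 1.5-fold required as well, which makes a differentially expressed gene (DEG), 0 members were lower and only *EPAS1* was higher. By this rule 2.65% of all genes were lower and 3.07% higher. In 18 members every PACT KO dish lay below every LNCaP parental dish, in 5 every dish lay above, and in 12 the groups overlapped. The same complete separation was found in 27.2% of all genes downward and in 25.1% upward. The median log2 fold change of the 35 members was -0.108 and that of all genes 0.000.

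**Figure D1:**
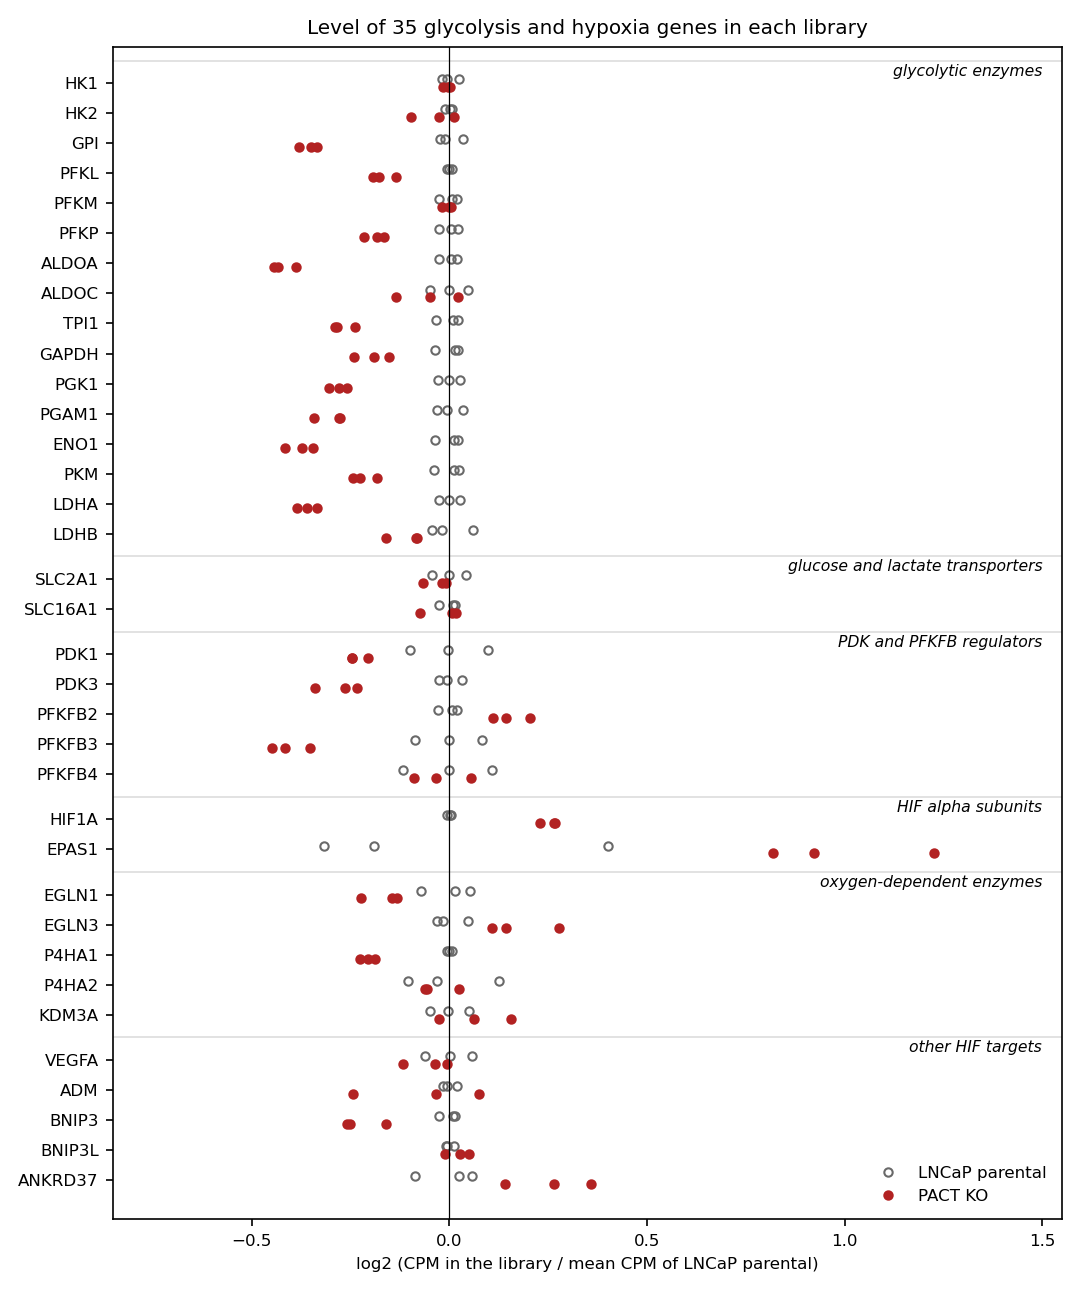
Level of each of the 35 members tested, in each library, on the x axis as log2 of its CPM divided by the mean CPM of the LNCaP parental libraries, with members on the y axis in groups by role. Open circles are the 3 LNCaP parental dishes and filled circles the 3 PACT KO dishes; the filled circles lie apart on the left in 18 members, 12 of them glycolytic enzymes, and apart on the right in 5.

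Glycolytic enzymes made up most of the members that fell. All 16 were tested, 12 fell (75.0%, against 18.8% of all genes) and 0 rose (against 15.3%). The share of all genes was not matched for abundance. Small changes pass more easily in abundant genes, where the SE is smaller (0.03 for *ALDOA* and 0.22 for the scarce *ADM*). The median log2 fold change of the 16 enzymes was -0.206, within a range of -0.421 to -0.004. All 16 values were negative, although only 14 were when libraries were scaled by their upper quartile or by their totals alone, without LNCaP parental replicate 1 or without PACT KO replicate 3, and 15 were with a filter of 1 CPM in 3 libraries. Together the 16 enzymes took 1.173%, 1.171% and 1.145% of the reads in LNCaP parental replicates 1 to 3 and 0.981%, 1.018% and 1.002% in PACT KO replicates 1 to 3. This was 1.16% ± 0.0159 and 1.00% ± 0.0185 (SD, n = 3), lower in each PACT KO dish than in any parental dish. Without *GAPDH*, the most abundant of them, the share was 0.753% ± 0.00912 (SD, n = 3) in LNCaP parental and 0.635% ± 0.00813 in PACT KO cells. The other 21 members together took 0.107% ± 0.000792 and 0.109% ± 0.00150 of the reads.

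**Figure D2:**
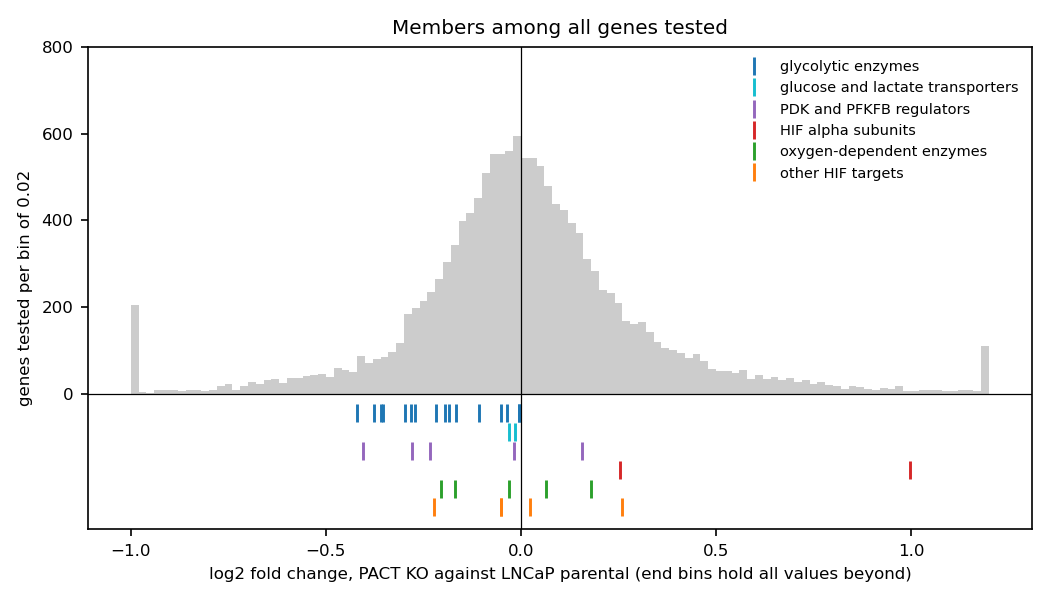
Distribution of the log2 fold change of PACT KO against LNCaP parental cells over the 14462 genes tested (grey bars, number of genes per bin on the y axis, with values beyond the axis held in the end bins) and the members' values as ticks below it, coloured by role. The glycolytic enzymes lie between -0.421 and -0.004, left of the median of all genes at 0.000, and the HIF alpha subunits at 0.255 and 0.997.

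Aldolase A, which cleaves fructose 1,6-bisphosphate, had the most negative log2 fold change of the 35 members. *ALDOA* had 928, 939 and 910 CPM in LNCaP parental replicates 1 to 3 and 686, 708 and 681 CPM in PACT KO replicates 1 to 3. The groups did not overlap, and the log2 fold change was -0.42 (SE 0.03, FDR = 1.94e-16). *ALDOC*, the aldolase typical of brain, was at 82.0, 84.8 and 79.3 CPM in LNCaP parental and 74.7, 83.3 and 79.2 CPM in PACT KO cells. Its groups overlapped, with a log2 fold change of -0.05 (SE 0.04, FDR = 0.277).

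Enolase 1, which makes phosphoenolpyruvate, was the second most abundant enzyme per length before and after the knockout. *ENO1* went from 1259, 1250 and 1209 CPM in the LNCaP parental dishes to 929, 976 and 958 CPM in the PACT KO dishes, a log2 fold change of -0.38 (SE 0.03, FDR = 7.21e-15). *GPI*, which converts glucose 6-phosphate to fructose 6-phosphate, went from 829, 796 and 802 CPM to 622, 635 and 642 CPM. Its log2 fold change was -0.35 (SE 0.03, FDR = 2.99e-14), again with no overlap. A further 4 enzymes of the trunk of the pathway fell without overlap between the groups. Triosephosphate isomerase *TPI1* fell from 962 ± 19.5 to 797 ± 15.8 CPM, phosphoglycerate kinase *PGK1* from 509 ± 9.86 to 419 ± 6.69 CPM, and phosphoglycerate mutase *PGAM1* from 103 ± 2.33 to 83.5 ± 2.18 CPM (SD, n = 3). Pyruvate kinase *PKM* fell from 1265 ± 29.02 to 1088 ± 23.9 CPM. Their log2 fold changes were -0.27, -0.28, -0.30 and -0.22. Gene counts do not separate the M1 and M2 splice forms of *PKM*.

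The kinases at the entry of the pathway had smaller log2 fold changes. Hexokinase *HK1* had 161, 158 and 157 CPM in LNCaP parental and 158, 159 and 157 CPM in PACT KO dishes. *HK2*, the hexokinase that many tumors induce, had 34.0, 34.3 and 34.4 CPM against 32.0, 34.5 and 33.6 CPM. Neither was called (log2 fold changes -0.01 with SE 0.03 and -0.04 with SE 0.05), and for both the groups overlapped. Phosphofructokinase, the main control point of glycolysis, is made from 3 genes. *PFKM*, the muscle form, had 284, 282 and 276 CPM in LNCaP parental and 281, 281 and 277 CPM in PACT KO cells, a log2 fold change of -0.00 (SE 0.03). *PFKL*, the liver form, had 226, 224 and 224 CPM against 204, 199 and 197 CPM, a log2 fold change of -0.17 (FDR = 4.07e-06). *PFKP*, the platelet form, had 61.8, 61.0 and 59.7 CPM against 53.6, 54.3 and 52.4 CPM, a log2 fold change of -0.19 (FDR = 1.20e-04). The muscle form overlapped between the groups and the other forms did not.

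The lactate dehydrogenase subunits differ in their preferred direction, A toward lactate and B toward pyruvate. *LDHA* had 503, 485 and 494 CPM in LNCaP parental replicates 1 to 3 and 385, 392 and 379 CPM in PACT KO replicates 1 to 3 (log2 fold change -0.36, SE 0.03, FDR = 2.82e-14). *LDHB* had 484, 451 and 459 CPM and 439, 438 and 416 CPM (log2 fold change -0.11, SE 0.03, FDR = 0.00191). Both fell without overlap, but the fall of *LDHB* did not pass with upper quartile scaling (FDR = 0.0143), with library totals alone (FDR = 0.0154), without LNCaP parental replicate 1 (FDR = 0.0442) or without PACT KO replicate 3 (FDR = 0.0412).

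The order of the enzymes by abundance is best read per length, here as CPM per kilobase of the exons of protein-coding GENCODE 29 transcripts, which are not the annotation used for counting. *GAPDH* led at 1863 CPM per kilobase in LNCaP parental and 1628 in PACT KO cells. It was followed by *ENO1* (516 and 397), *TPI1* (443 and 367), *PKM* (382 and 329), *LDHB* (293 and 272), *ALDOA* (251 and 188), *GPI* (181 and 142), *LDHA* (167 and 130) and *PGK1* (102 and 84.1). On this scale *HK2* was the lowest of the 16, at 5.76 and 5.62 CPM per kilobase. Among the hexokinases *HK1* was far higher, at 34.0 and 33.8.

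*GAPDH*, glyceraldehyde 3-phosphate dehydrogenase, is also one of the reference genes to which quantitative PCR was normalised in the study, the other being *HPRT1*. *GAPDH* had 4182, 4209 and 4039 CPM in LNCaP parental replicates 1 to 3 and 3505, 3725 and 3631 CPM in PACT KO replicates 1 to 3. Every PACT KO dish was lower, and the log2 fold change was -0.19 (SE 0.03, FDR = 8.02e-08). *HPRT1*, an enzyme of purine salvage, had 30.5 ± 2.10 CPM in LNCaP parental and 27.0 ± 1.96 CPM in PACT KO cells (SD, n = 3). Its groups overlapped and it was not called (log2 fold change -0.18, SE 0.06, FDR = 0.0167). Within a library, the log2 ratio of *GAPDH* to *HPRT1* counts was 7.13, 7.19 and 6.94 in LNCaP parental and 7.04, 7.21 and 6.96 in PACT KO cells, a difference of -0.022 (exact permutation test, 2-sided, p = 1.0). The log2 ratio of *PRKRA* counts was lower in PACT KO cells by a difference of -1.379 against *GAPDH* and of -1.401 against *HPRT1* (p = 0.10 for each in the exact permutation test, the smallest that 3 against 3 dishes allow, and 0.15 after Benjamini-Hochberg adjustment over 3 ratios). Of 9 other genes in common use as references, 4 fell (44.4%) and 1 rose (11.1%), against 18.8% and 15.3% of all genes. The tubulins moved most, with *TUBA1B* at a log2 fold change of -0.62 and *TUBA1A* at 0.84, both DEGs, and *TUBB* at -0.31. *PPIA*, a cyclophilin, fell by 0.20 on the log2 scale.

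**Figure D3:**
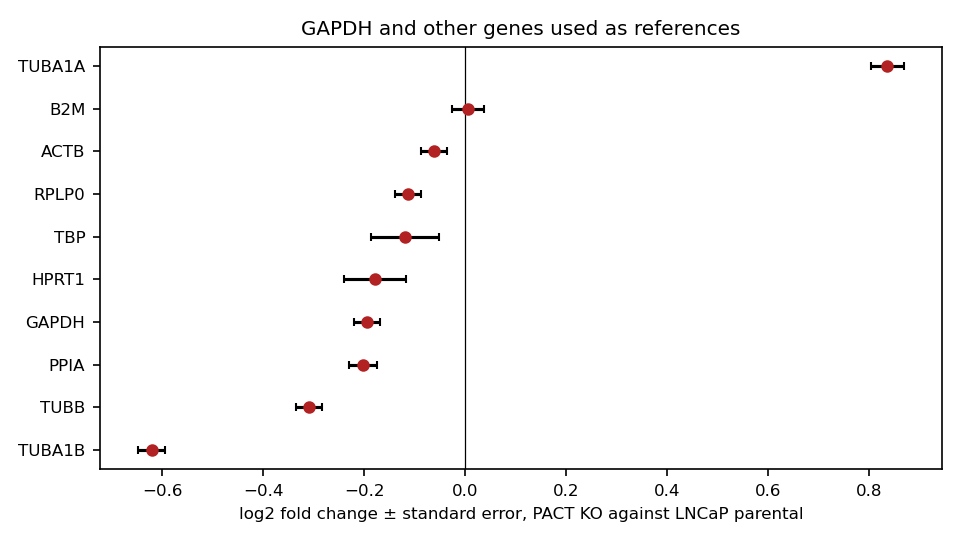
Log2 fold change of PACT KO against LNCaP parental cells (x axis) with its standard error (bars) from edgeR for *GAPDH* and 9 other genes in common use as references (y axis). *GAPDH* lies at -0.19 and *HPRT1* at -0.18, *B2M* at 0.00, and the outermost values are those of *TUBA1B* (-0.62) and *TUBA1A* (0.84).

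The transporters that bring glucose in and carry lactate out were not called. *SLC2A1*, the glucose transporter GLUT1 and a classical HIF target, had 53.8, 57.1 and 55.4 CPM in LNCaP parental and 52.9, 55.1 and 54.8 CPM in PACT KO cells (log2 fold change -0.03, SE 0.04, FDR = 0.549). *SLC16A1*, the lactate transporter MCT1, had 121 ± 1.90 and 120 ± 4.08 CPM (log2 fold change -0.01, SE 0.03). Both overlapped between the groups. Of 8 other hexose and monocarboxylate transporters tested, 3 fell (37.5%, against 18.8% of all genes) and 0 rose (against 15.3%). They were *BSG*, the chaperone of the lactate transporters (log2 fold change -0.23), *SLC16A7*, which encodes MCT2 (-0.48), and *SLC2A4*, which encodes the insulin-responsive GLUT4 (-0.41).

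Of 5 regulators of the flow through glycolysis, 3 were lower and 1 was higher, where 18.8% and 15.3% of all genes were. With only 5 genes the count is no result about the group, and it was not tested. The bifunctional PFKFB enzymes make or remove fructose 2,6-bisphosphate, the activator of phosphofructokinase. *PFKFB3*, the form with the strongest kinase activity, had 21.9, 20.7 and 19.5 CPM in LNCaP parental and 16.2, 15.2 and 15.5 CPM in PACT KO cells, without overlap (log2 fold change -0.40, SE 0.07, FDR = 2.51e-05). *PFKFB2*, the heart form, had 52.1, 52.5 and 50.8 CPM against 59.7, 57.2 and 56.0 CPM and rose (log2 fold change 0.16, SE 0.04, FDR = 0.00132). This rise did not pass in DESeq2 (FDR = 0.0156) or without PACT KO replicate 1 (FDR = 0.0182), and *PFKFB2* overlaps *YOD1* (719 to 926 counts), and it is not known whether the counting used strand. *PFKFB4* overlapped between the groups, at 27.0, 29.04 and 24.8 CPM and 28.0, 25.3 and 26.3 CPM (log2 fold change -0.02, SE 0.06).

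Pyruvate dehydrogenase kinases close the entry of pyruvate into the citric acid cycle. *PDK1*, a HIF-induced form, had 32.4, 34.6 and 37.1 CPM in LNCaP parental and 30.1, 29.3 and 29.2 CPM in PACT KO cells (log2 fold change -0.23, SE 0.05, FDR = 5.73e-04). Its fall did not pass without LNCaP parental replicate 3, the highest library (FDR = 0.0259). *PDK3* had 47.2, 48.5 and 46.6 CPM against 39.5, 37.5 and 40.4 CPM, also without overlap (log2 fold change -0.28, SE 0.04, FDR = 1.22e-06). Of the 11 other genes of pyruvate entry that were tested, 3 fell (27.3%) and 1 rose (9.09%), not far from the 18.8% and 15.3% of all genes. Those that fell were *DLAT*, a core subunit of pyruvate dehydrogenase (log2 fold change -0.41), *MPC2*, a subunit of the mitochondrial pyruvate carrier (-0.19), and *PDHA1*, the subunit that the kinases phosphorylate (-0.18). *PDP1*, a phosphatase that reverses this phosphorylation, rose (0.24).

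Both HIF alpha subunits rose. *HIF1A* had 176, 177 and 177 CPM in LNCaP parental replicates 1 to 3 and 213, 212 and 207 CPM in PACT KO replicates 1 to 3. The dishes of each group lay close together and the groups were apart (log2 fold change 0.25, SE 0.03, FDR = 8.77e-10). *EPAS1*, which encodes HIF-2 alpha, was scarce, with 37, 58 and 44 reads in LNCaP parental and 95, 87 and 96 reads in PACT KO dishes. This was 2.03 ± 0.570 CPM and 4.06 ± 0.614 CPM (SD, n = 3), a 2.00-fold higher level with no overlap (log2 fold change 1.00, SE 0.16, FDR = 3.65e-06). With each library left out in turn its log2 fold change was between 0.87 and 1.24. Per length, *HIF1A* was at 41.5 CPM per kilobase in LNCaP parental and 49.5 in PACT KO cells, and *EPAS1* at 0.393 and 0.785.

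Around them in the pathway, 12 of 14 further listed components of HIF signaling were tested, and 1 fell (8.33%) and 2 rose (16.7%). This is no larger a share than the 18.8% of all genes that fell and close to the 15.3% that rose, so the count is no result about the list. *CITED2*, a protein that competes with HIF for the coactivators CBP and p300, had 2349, 1982 and 2434 reads in LNCaP parental and 4100, 4076 and 3243 reads in PACT KO dishes (log2 fold change 0.75, FDR = 2.72e-20). *ARNT2*, a partner of the alpha subunits, had 1314, 1260 and 1365 reads against 2198, 2321 and 1889 (log2 fold change 0.70, FDR = 3.48e-18). Both were DEGs without overlap, whereas *ELOB*, part of the ubiquitin ligase that removes the alpha subunits, was at a log2 fold change of -0.12 (FDR = 9.41e-04).

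Among the oxygen-dependent enzymes 2 of 5 fell and 0 rose, where 18.8% and 15.3% of all genes did. With only 5 genes the count is no result about the group, and it was not tested. The prolyl hydroxylase *EGLN1*, the main oxygen sensor for HIF, had 53.5, 50.4 and 55.0 CPM in LNCaP parental and 45.4, 47.9 and 48.3 CPM in PACT KO cells (log2 fold change -0.17, SE 0.04, FDR = 0.00112). The call was lost in DESeq2 (FDR = 0.0161), without LNCaP parental replicate 3 (FDR = 0.0198) and without PACT KO replicate 1 (FDR = 0.0212). *EGLN3*, a prolyl hydroxylase that is itself HIF-induced, had 18.1, 17.9 and 18.9 CPM against 22.2, 20.3 and 19.8 CPM. Its dishes did not overlap, but it was not called (log2 fold change 0.18, SE 0.07, FDR = 0.0396).

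The P4HA genes encode the catalytic subunit of the prolyl hydroxylase that matures collagen. *P4HA1* had 48.8, 48.3 and 48.6 CPM in LNCaP parental and 42.7, 42.1 and 41.6 CPM in PACT KO dishes, which lay apart (log2 fold change -0.20, SE 0.04, FDR = 7.25e-05). *P4HA2* had 18.9, 16.9 and 16.1 CPM against 16.6, 16.7 and 17.6 CPM, which overlapped (log2 fold change -0.03, SE 0.08). *KDM3A*, a histone demethylase that needs oxygen, was not called either, at 37.6 ± 1.28 and 39.4 ± 2.51 CPM.

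Of the 5 remaining HIF targets tested, only *BNIP3* fell (20.0%, close to the 18.8% of all genes) and 0 rose (against 15.3%). *BNIP3*, which targets mitochondria for removal, had 113, 114 and 111 CPM in LNCaP parental and 101, 94.1 and 94.6 CPM in PACT KO cells (log2 fold change -0.22, SE 0.03, FDR = 7.36e-07). Its relative *BNIP3L* had 171, 171 and 173 CPM against 178, 175 and 170 CPM and overlapped (log2 fold change 0.02, SE 0.03). *VEGFA*, the growth factor of blood vessels, had 80.6, 87.5 and 84.1 CPM against 83.7, 77.5 and 81.9 CPM, also with overlap (log2 fold change -0.05, SE 0.04, FDR = 0.260). The scarce members could not be measured closely. *ADM*, the vasodilator peptide adrenomedullin, had 23 to 35 reads in a dish (log2 fold change -0.05, SE 0.22). *ANKRD37* had 72, 67 and 71 reads in LNCaP parental and 83, 95 and 74 reads in PACT KO dishes, and although these did not overlap, the log2 fold change of 0.26 had an SE of 0.14 (FDR = 0.120). *CA9*, carbonic anhydrase 9 and a common tissue marker of hypoxia, had 0, 0 and 2 reads in LNCaP parental and 0 in each PACT KO dish. *ANGPTL4*, a regulator of lipoprotein lipase, had 0, 0 and 1 reads and 1, 2 and 0 reads. Neither of these was detectable above 3 counts, so no fold change is given.

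Ratios between related genes within a library need no scaling between libraries, and 11 such pairs were compared. In 5 pairs the log2 ratio of counts was higher in every PACT KO dish, in 4 it was lower, and in 2 the groups overlapped. Of all single genes, 27.2% were separated downward and 25.1% upward. The share over other gene pairs was not computed, so the count is no result about these pairs. Every separated pair had p = 0.10 in the exact permutation test, the smallest the design allows, and 0.122 after adjustment over the 11 pairs, so none can pass a threshold of 0.05. The *LDHA* to *LDHB* log2 ratio was 0.06, 0.11 and 0.11 in LNCaP parental and -0.19, -0.16 and -0.14 in PACT KO dishes. The subunit with more reads thus changed from A to B, although on the per-length scale *LDHB* led in both groups. The *ALDOC* to *ALDOA* log2 ratio was -3.50, -3.47 and -3.52 against -3.20, -3.09 and -3.10. The *PFKP* to *PFKM* log2 ratio was -2.20, -2.21 and -2.21 against -2.39, -2.37 and -2.40, so that the muscle form took a larger share of the reads. *PFKL* to *PFKM* shifted the same way, with a difference of -0.163.

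Among the regulators, the difference of the log2 ratio was 0.77 for *EPAS1* to *HIF1A*, 0.343 for *EGLN3* to *EGLN1*, 0.178 for *P4HA2* to *P4HA1*, 0.247 for *BNIP3L* to *BNIP3* and -0.173 for *PFKFB4* to *PFKFB2*. The *HK2* to *HK1* and *PDK1* to *PDK3* ratios overlapped between the groups, with differences of -0.03 and 0.048 (exact permutation p = 0.6 for each). No shift between *PDK1* and *PDK3* was detectable beyond the spread of the dishes.

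**Figure D4:**
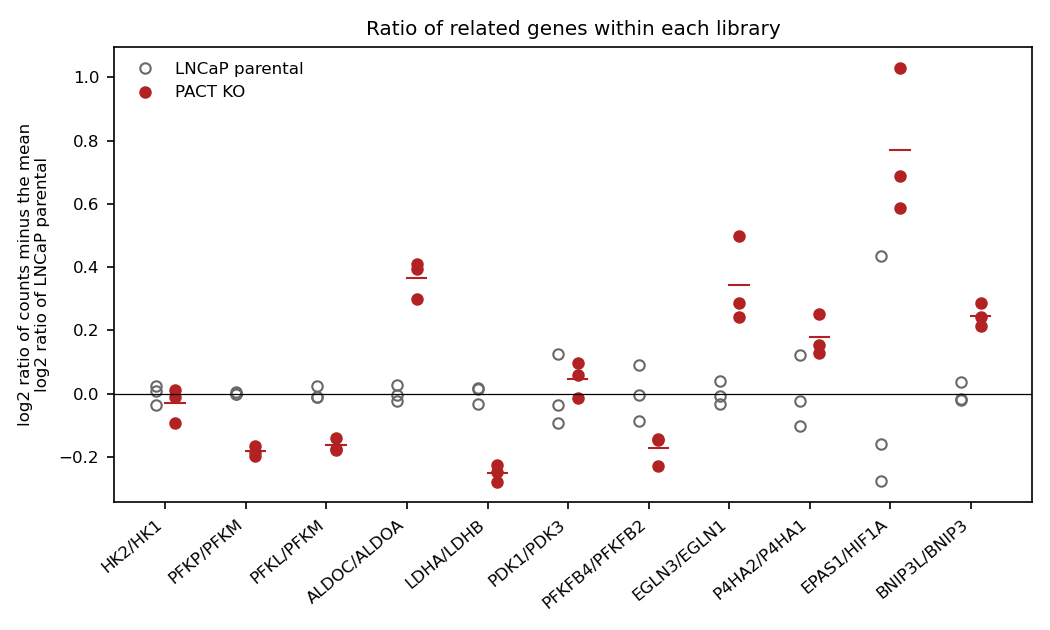
Log2 ratio of the counts of related genes within each library (y axis), less the mean log2 ratio of the LNCaP parental libraries, for the 11 pairs on the x axis. Open circles are LNCaP parental dishes, filled circles PACT KO dishes and lines the PACT KO means; *LDHA* to *LDHB* lies lower by 0.251 and *ALDOC* to *ALDOA* higher by 0.367, and the *EPAS1* to *HIF1A* dishes spread most.

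Genes next to these in metabolism were examined from lists. Of 8 genes of the pentose phosphate pathway, which leaves glycolysis at glucose 6-phosphate, 5 fell (62.5%) and 0 rose, against 18.8% and 15.3% of all genes, with a median log2 fold change of -0.207. Those with the smallest p were *TKT*, transketolase (log2 fold change -0.42, FDR = 1.72e-16), *TALDO1*, transaldolase (-0.24), and *PGD*, which makes NADPH (-0.22). Of 29 other glycolytic, gluconeogenic and linked enzymes only 13 were abundant enough to be tested, of which 1 fell (7.69%) and 2 rose (15.4%), below the share of all genes that fell and close to the share that rose, with a median log2 fold change of 0.014. *PCK2*, the mitochondrial enzyme that makes phosphoenolpyruvate, fell (log2 fold change -0.49, FDR = 1.48e-17). The phosphoglucomutase *PGM1* (0.24), which links glycogen to glycolysis, and its relative *PGM2* (0.11) rose. Of 27 tested among 34 other hypoxia-inducible genes, 9 fell (33.3%) and 2 rose (7.41%), where 18.8% and 15.3% of all genes did, with a median log2 fold change of -0.099. *TFRC*, the transferrin receptor (log2 fold change -0.29), *STC2*, stanniocalcin 2 (-0.40), and *AK4*, a mitochondrial adenylate kinase (-0.32), fell, whereas *WSB1*, a ubiquitin ligase adaptor (0.41), and *NDRG1*, a gene that androgen also induces (0.15), rose.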

How the data were processed

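PolyA RNA from 6 dishes was sequenced on an Illumina NovaSeq. The authors deposited whole-number counts of reads per gene by NCBI Gene number, not normalized. The submitters' processing notes name bcl2fastq 2.20.0.422, STAR 2.5.3a, StringTie 1.3.3, featureCounts 1.5.3 and hg38. The annotation, the use of strand and the handling of reads that match several places are not given in the sources used here, so reads shared with processed pseudogenes or overlapping genes (*PFKFB2*, *PFKM*, *TPI1*, *BNIP3* and *ANKRD37* overlap other expressed genes) are uncertain. A row without a gene number (0.0688% to 0.0708% of counts) was left out. Symbols were matched for 27540 of 29806 numbers (92.4%).

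All genes were fitted at once with edgeR 4.0.16 in R 4.3.3 (filterByExpr, TMM, glmQLFit and glmQLFTest, 2-sided), p-values were adjusted by Benjamini-Hochberg over 14462 genes, and the members' results were taken from that fit. CPM use TMM factors. Common dispersion was 8.41e-04. The study used edgeR with TMM, and its methods do not say which edgeR test. Replicates differed by more than sampling noise, with variance ratios of 1.58 to 1.99 (LNCaP parental) and 2.09 to 3.83 (PACT KO). Count ratios used a pseudocount of 0.5 only as an alternative. The alternatives were other scalings and filters, DESeq2 1.42.0, limma-voom (limma 3.58.1), a replicate block, an FDR of 0.05 and each library left out. The procedure was also run on simulated counts drawn with the dispersion of these dishes. That run cannot show differences between clones, and its outcome is not used here. Motif searches and figures used Python 3.11.15.

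The members and lists were chosen with earlier results of these data known. The text names all members, *PRKRA* and *HPRT1*, and from each further list at most the 3 genes that fell and the 3 that rose with the smallest p. Replicates are dishes plated in triplicate, and p-values measure the spread between dishes. A comparison of protein sequences was not made here.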

Additional observations from a re-analysis of the deposited data

How the results depend on the processing

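Under the 14 alternative fits, the members called lower were 16 to 18 and those called higher 2 or 3, and *EPAS1* was the only DEG in each. An FDR threshold of 0.05 gave 18 and 4. No call reversed direction, and 4 of 35 (*LDHB*, *PDK1*, *PFKFB2* and *EGLN1*) lost their call in at least 1 fit. The median log2 fold change of the glycolytic enzymes was between -0.225 and -0.176, while that of all genes moved by at most 0.030, with library totals alone. With that scaling 2286 genes were lower and 2731 higher, against 2726 and 2214 with TMM. With each library left out, the *GAPDH* to *HPRT1* difference was -0.095 to 0.031. The labels give both groups replicate numbers 1 to 3, but same-numbered dishes did not deviate together (correlations -0.094, 0.003 and -0.086). With the replicate number as a block, 18 members were lower, 3 higher, 0 a lower DEG and 1 a higher DEG. Over all genes the replicate block gave 2631 lower and 2139 higher, of which 374 and 426 were DEGs. Depth limited *CA9*, *ANGPTL4*, *ADM*, *ANKRD37* and *EPAS1*, and 1 clone limits all comparisons.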
